A study of Homo sapiens with 34 samples.

Results

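The 9 genes described here belong to the epithelial-to-mesenchymal transition (EMT), and they were followed through the differentiation of human pluripotent stem cells. They are the repressor factors SNAI1, SNAI2, TWIST1, ZEB1 and ZEB2, the mesenchymal effectors VIM and FN1, and the epithelial splicing regulators ESRP1 and ESRP2. They were taken by symbol, and each of the 9 symbols matched 1 of the 37951 gene identifiers in the count tables. All 9 passed the filter on low counts, as did 17895 genes in all. RNA sequencing covered 34 libraries of wild-type ESI017 cells, an established line of human embryonic stem cells, with 2 replicates in each of 17 conditions. The control was undifferentiated and kept in mTeSR Plus medium, and its labels give 48 h. On day 1, DE(a) cells, the first step towards definitive endoderm, received activin at 100 ng/ml and the Wnt activator CHIR at 2 µM. Cells for the anterior primitive streak (APS) received 30 ng/ml activin with bFGF at 20 ng/ml and CHIR at 4 µM. The mid primitive streak (MPS) was made with 6 µM CHIR, 40 ng/ml BMP4, 30 ng/ml activin and 20 ng/ml bFGF, and the posterior primitive streak (PPS) with the same CHIR, BMP4 and bFGF but no activin. These 4 populations were collected at 24 h. Each was also moved for a second day to 1 of 3 media and collected at 48 h, which gave 12 further conditions named by both days (MPS-LM, for example). DE(b), the endoderm medium, held activin at 100 ng/ml and the BMP receptor inhibitor LDN at 250 nM. Paraxial mesoderm (PM) medium held LDN at 250 nM, the TGFβ receptor inhibitor A8301 at 1 µM and bFGF at 20 ng/ml. These are the agents in the labels of the PM libraries. The paper, however, describes this step as Wnt activation together with inhibition of BMP, and a legend in its supplement lists CHIR in the medium. By the paper's account Wnt was thus activated in PM, although the labels do not name the agent. Lateral mesoderm (LM) medium held A8301 at 1 µM, BMP4 at 30 ng/ml and the Wnt inhibitor IWP2 at 4 µM. All conditions come from 1 cell line, and nothing in the labels says more of the replicates than that they are biological, so p-values measure the spread between these libraries.

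EMT is the process by which cells of a polarized sheet loosen their junctions, change their cytoskeleton and become able to migrate. In the embryo it takes place in the primitive streak, where epiblast cells ingress to form mesoderm and endoderm. Snail-family (SNAI1, SNAI2) and ZEB-family (ZEB1, ZEB2) zinc-finger proteins bind E-box sequences and repress epithelial genes such as CDH1, which encodes E-cadherin (E-CAD), while TWIST1 is a basic helix-loop-helix factor of mesoderm. VIM encodes the intermediate filament vimentin, FN1 encodes the matrix protein fibronectin, and ESRP1 and ESRP2 encode RNA-binding proteins that maintain epithelial splice forms.

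Levels are given as CPM, the estimated counts of a gene per 1000000 counts of its library. The library totals ranged from 15522780 to 23439799 with a median of 19341117. Differences are log2 fold changes from 1 edgeR quasi-likelihood model over all 34 libraries, given with their standard error (SE) as ±, and a gene was called at a Benjamini-Hochberg adjusted p under 0.05 over all 17895 genes. The marker genes were checked against the labels by their summed levels. The summed level of 8 pluripotency markers was 7015 CPM in the control and at most 3273 elsewhere. That of 8 definitive endoderm markers was between 4412 and 7290 CPM in DE(b) medium and at most 1857 outside it. CER1, a secreted inhibitor, made up much of that sum in PPS-DE(b) (3592 CPM), while FOXA2, a defining endoderm factor, was at 6.59 CPM there and 105 in DE(a)-DE(b). The paper reports low FOXA2 in MPS-DE(b) too, so a high sum need not mean endoderm. The 8 paraxial mesoderm markers summed to between 1305 and 1638 CPM in PM and at most 466 elsewhere. The 8 lateral mesoderm markers summed to between 967 and 2827 CPM in LM, and their level in DE(a)-LM was no higher than in PPS at 24 h (984 CPM). In bulk libraries such as these, fewer cells of a type and less RNA per cell cannot be told apart.

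The members lie on 6 chromosomes of GRCh38 (GENCODE v44), and all are protein coding. SNAI1 (ENSG00000124216) is on chromosome 20 from 49982980 to 49988886 on the plus strand, TWIST1 (ENSG00000122691) on chromosome 7 from 19020991 to 19117636 on the minus strand, and ESRP2 (ENSG00000103067) on chromosome 16 from 68229033 to 68238102 on the minus strand. ZEB2 (ENSG00000169554) and FN1 (ENSG00000115414) share chromosome 2, from 144364364 to 144521057 and from 215360440 to 215436073, both on the minus strand. VIM (ENSG00000026025) and ZEB1 (ENSG00000148516) share chromosome 10, from 17228241 to 17237593 and from 31318495 to 31529814, both on the plus strand.

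RefSeq promoter windows (GRCh38.p14) were at hand for 4 members, ZEB1, ZEB2, VIM and FN1, with 10 windows in all since ZEB1 has 7 start sites. The 250 bases before each start were searched on both strands for the E-box CAGGTG, whose reverse strand reads CACCTG. It was in 2 of 10 windows, both of ZEB1, and in 17.5% of the 35116 windows of all genes. The windows of the most upstream ZEB1 start (chr10:31318167-31318416) and of VIM (chr10:17227991-17228240), both on the plus strand, are shown because the factors named above bind this motif and both genes are members. Capitals mark the E-box, which begins 57 bases before the ZEB1 start, and no E-box of this form is in the VIM window.
ZEB1: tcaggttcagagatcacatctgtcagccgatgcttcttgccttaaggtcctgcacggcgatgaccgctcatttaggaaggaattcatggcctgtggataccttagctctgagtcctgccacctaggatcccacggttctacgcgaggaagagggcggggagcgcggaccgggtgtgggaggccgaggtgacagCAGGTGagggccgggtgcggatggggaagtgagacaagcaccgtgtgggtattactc
VIM: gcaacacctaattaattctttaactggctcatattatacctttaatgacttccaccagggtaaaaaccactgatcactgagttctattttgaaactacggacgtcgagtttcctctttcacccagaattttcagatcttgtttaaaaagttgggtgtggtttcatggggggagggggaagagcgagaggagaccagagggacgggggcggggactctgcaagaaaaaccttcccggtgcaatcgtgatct

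At 24 h every repressor factor was above the control in every library of the 4 populations, and MPS held the highest condition mean of SNAI1, SNAI2, ZEB1 and ZEB2 at that time. SNAI1, the Snail-family factor of the early streak, stood at 4.61 and 3.55 CPM in the 2 control libraries, 35.3 and 26.7 in DE(a), 48.7 and 49.4 in APS, 134 and 112 in MPS and 64.9 and 40.3 in PPS. MPS was thus apart from the other populations, and MPS-24h was the highest of all 17 conditions. The rise over the control was 5.01 ± 0.28, adjusted p = 1.47e-11 in MPS and 3.02 ± 0.27, adjusted p = 2.7e-08 in DE(a). SNAI2 (ENSG00000019549), its paralogue of migratory mesoderm and neural crest, was at 0.768 and 1.12 CPM in the control and reached 22.7 and 11.1 in MPS, with a rise that was called in APS, MPS and PPS and not in DE(a) (1.83 ± 0.65, adjusted p = 0.0514).

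ZEB2 had the largest fold over the control of the 9 genes in each population at 24 h. Its control libraries held 14 and 0 estimated counts, where 0 counts allows up to 0.160 CPM (3 counts), so the size of its fold is poorly fixed. ZEB2 was at 8.19 and 9.29 CPM in DE(a), 32.8 and 26.5 in APS, 61.9 and 38.8 in MPS and 15.3 and 8.26 in PPS, and its log2 fold change in MPS was 7.30 ± 0.58, adjusted p = 2.49e-09. ZEB1 was at 1.38 and 0.903 CPM in PPS, 1.97 and 3.33 in DE(a), 2.70 and 3.11 in APS and 5.21 and 2.80 in MPS against 0.271 and 0.532 in the control, and its smallest rise was that in PPS (1.55 ± 0.37, adjusted p = 0.00268). The ZEB1 call in PPS was lost without PPS-24h replicate 1 (0.0684) or Control replicate 1 (0.0735). TWIST1 rested on few reads, with 7 and 3 estimated counts in the control libraries, and reached 3.03 and 2.71 CPM in PPS. It was called in all 4 populations, between 2.72 ± 0.61 in DE(a) and 3.59 ± 0.60 in MPS, and the DE(a) call was lost without DE(a)-24h replicate 1 (0.0557).

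**Figure D1:**
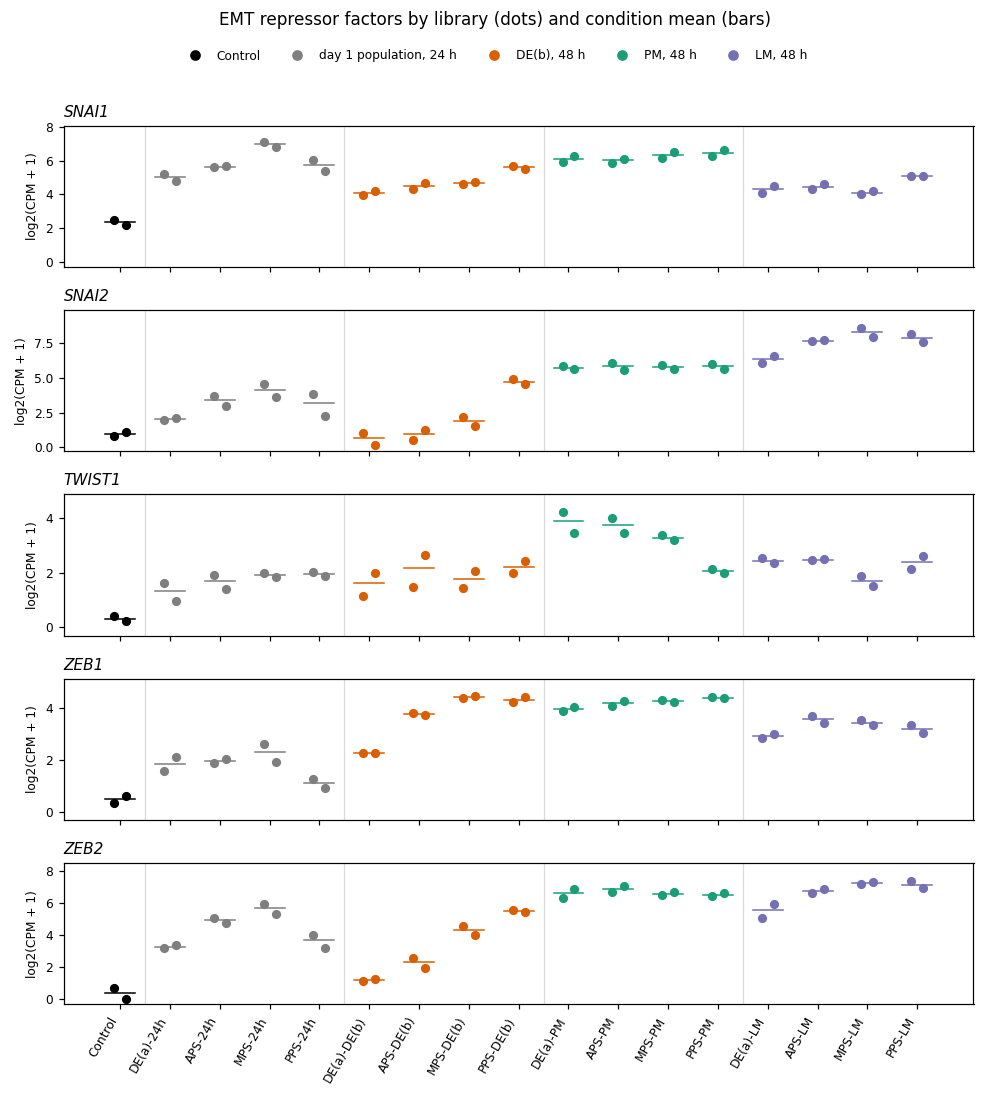
Levels of the 5 repressor factors in each of the 34 libraries, as log2(CPM + 1) on the vertical axis and the 17 conditions on the horizontal axis; dots are libraries and bars are condition means. SNAI1 peaks in MPS-24h and is higher in PM than in LM, and SNAI2 is highest in LM. Within DE(b) medium ZEB2 climbs from DE(a) to PPS, while SNAI2 overlaps between DE(a) and APS and is highest after PPS.

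The mesenchymal effectors differed in the populations where they had risen by 24 h. VIM rose in each population at 24 h, from 91.5 and 99.4 CPM in the control to 515 and 303 in DE(a), 881 and 542 in APS, 1251 and 695 in MPS and 383 and 232 in PPS. The change was 3.45 ± 0.35, adjusted p = 9.64e-08 in MPS and 1.71 ± 0.33, adjusted p = 0.00036 in PPS, and all treated libraries lay above both controls. FN1 set MPS and PPS apart from DE(a) and APS. It was at 176 and 205 CPM in the control, 215 and 217 in DE(a) and 228 and 268 in APS, where it was not called (0.27 ± 0.28, adjusted p = 0.598 and 0.46 ± 0.28, adjusted p = 0.268). It was at 1871 and 1276 CPM in MPS and 1166 and 651 in PPS, and was called in both (3.14 ± 0.30, adjusted p = 4.44e-08 and 2.27 ± 0.29, adjusted p = 3.06e-06).

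The splicing regulators had smaller folds at 24 h. ESRP1 (ENSG00000104413), on chromosome 8 with SNAI2, was the highest of the 9 genes per kilobase of transcript in the control, at 202 and 225 CPM, and at 24 h it stood between 76.7 and 106 CPM in MPS and 142 and 127 in PPS. Its fall was called in MPS (-1.13 ± 0.26, adjusted p = 0.00167), APS (-0.96 ± 0.26, adjusted p = 0.00735) and DE(a) (-0.74 ± 0.26, adjusted p = 0.046), and not in PPS (-0.64 ± 0.26, adjusted p = 0.0619). Several libraries decided these calls. The DE(a) call was lost without any 1 of its 4 libraries (adjusted p between 0.0890 and 0.200), and the APS call without APS-24h replicate 2 (0.0509) or Control replicate 2 (0.0519). ESRP2 went from 80.9 and 63.8 CPM to 21.3 and 33.4 in MPS, its 1 call at 24 h (-1.31 ± 0.39, adjusted p = 0.013), which was lost without MPS-24h replicate 1 (0.143) or Control replicate 1 (0.0874). In number, 6 of the 9 genes were called against the control in DE(a), 7 in APS, 9 in MPS and 7 in PPS, where 19.0%, 24.5%, 30.0% and 29.8% of all genes tested were called. All 16 comparisons with the control, at 24 h and 48 h, share its 2 libraries.

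Between the populations of day 1, the test over all 4 (an F test) called 6 of 9 genes at 24 h, all but TWIST1, ESRP1 and ESRP2, against 18.8% of all genes. The lowest adjusted p were those of FN1 (1.58e-07) and SNAI1 (7.51e-06). SNAI2 was lost without DE(a)-24h replicate 1 (0.0759), MPS-24h replicate 1 (0.0869) or DE(a)-24h replicate 2 (0.0504). Fitting only the libraries compared left 3 of these calls, SNAI1, ZEB2 and FN1. Neighbouring populations differed in fewer genes. From DE(a) to APS 1 of 9 was called (0.732% of all genes), ZEB2 with 1.75 ± 0.40, adjusted p = 0.0382, and this call was lost without any 1 of the 4 libraries (adjusted p between 0.110 and 0.468). From APS to MPS 2 of 9 were called (2.93% of all genes), FN1 with 2.69 ± 0.30, adjusted p = 1.07e-05 and SNAI1 with 1.34 ± 0.24, adjusted p = 0.00165. From MPS to PPS, which differ in activin alone, 4 of 9 were called (6.14% of all genes) and all 4 were lower in PPS. They were ZEB2 (-2.16 ± 0.40, adjusted p = 0.00161), ZEB1 (-1.87 ± 0.30, adjusted p = 0.000569), VIM (-1.74 ± 0.33, adjusted p = 0.00203) and SNAI1 (-1.30 ± 0.24, adjusted p = 0.00157). Fitting only the libraries compared left 3 of these 7 neighbour calls, ZEB2 from DE(a) to APS (adjusted p = 0.024) and SNAI1 (0.0248) and FN1 (0.016) from APS to MPS. None of the 4 calls from MPS to PPS was left in that fit, where the adjusted p was 0.0504 for ZEB2, 0.0765 for SNAI1, 0.0877 for VIM and 0.161 for ZEB1, and with no filter on low counts there were 15 neighbour calls. Of the 7 neighbour calls 4 remained without PPS-24h replicate 2, where ZEB2, VIM and SNAI1 had adjusted p of 0.0676, 0.0796 and 0.0697, and VIM was also lost without MPS-24h replicate 1 (0.0982). Without PPS-24h replicate 1, SNAI2 (-1.08 ± 0.47 with all libraries) and FN1 (-0.87 ± 0.28) were called as well, with adjusted p of 0.0193 and 0.0159. CDH1 moved the other way, from 264 and 362 CPM in MPS to 717 and 861 in PPS (1.26 ± 0.26, adjusted p = 0.00455).

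**Figure D2:**
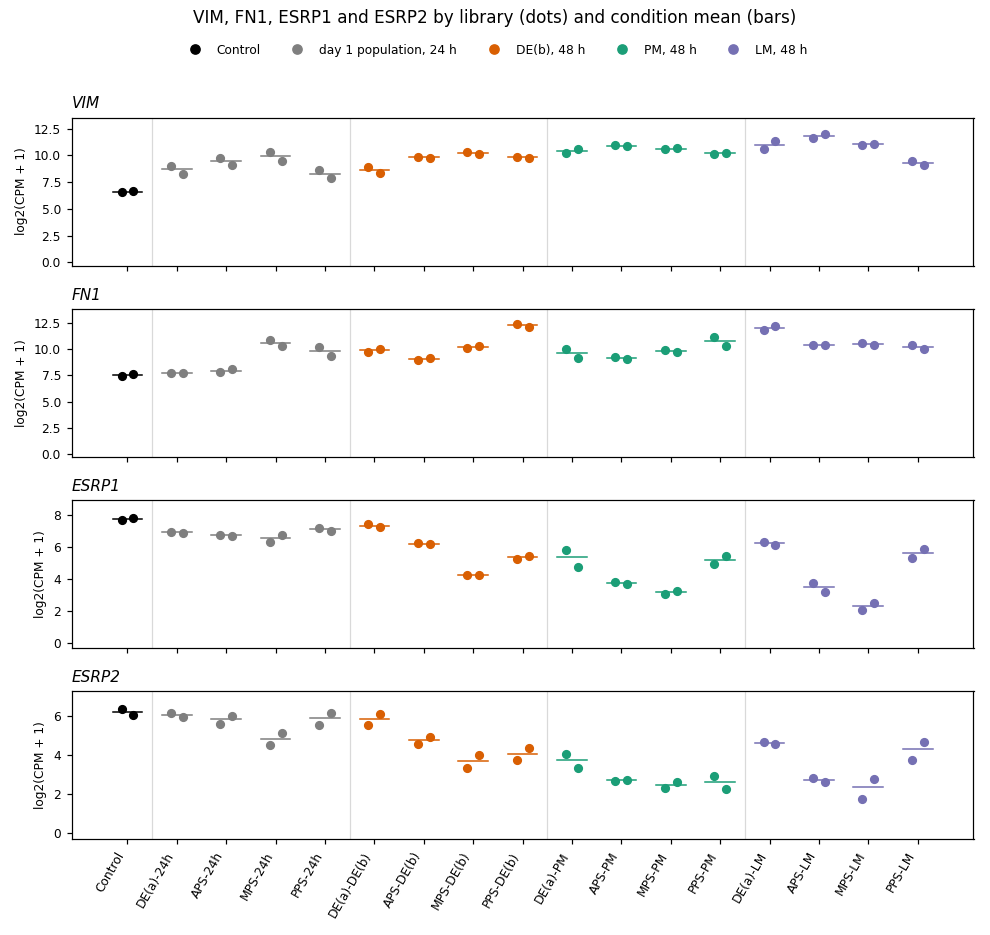
Levels of VIM, FN1, ESRP1 and ESRP2 in each of the 34 libraries, as log2(CPM + 1) on the vertical axis and the 17 conditions on the horizontal axis; dots are libraries and bars are condition means. FN1 separates MPS and PPS from DE(a) and APS at 24 h, and ESRP1 and ESRP2 have their lowest means in MPS-LM.

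The second day set the members apart by medium. In DE(b) medium the Snail factors and ZEB2 receded in the populations made with activin, while ZEB1 rose from APS and MPS. SNAI1 in MPS went from 134 and 112 CPM at 24 h to 23.6 and 26.0 in MPS-DE(b), a change of -2.38 ± 0.25, adjusted p = 2.74e-07. It also fell from DE(a) (-1.03 ± 0.24, adjusted p = 0.0029) and APS (-1.24 ± 0.24, adjusted p = 0.000407), and from PPS the value was -0.11 ± 0.23, adjusted p = 0.791. SNAI2 in APS went from 12 and 6.92 to 0.441 and 1.33 CPM (-3.42 ± 0.61, adjusted p = 0.000168), with 0.768 and 1.12 in the control. ZEB2 in APS went from 32.8 and 26.5 to 4.97 and 2.91 CPM (-2.96 ± 0.43, adjusted p = 1.55e-05). ZEB1 in APS took the opposite course, from 2.70 and 3.11 to 13.2 and 12.1 CPM (2.08 ± 0.28, adjusted p = 7.5e-06), so the ZEB paralogues parted in this medium. From DE(a), ZEB1 was not called (0.45 ± 0.29, adjusted p = 0.261).

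From PPS, SNAI2, ZEB1 and ZEB2 went up in the same medium. SNAI2 stood at 13.0 and 3.68 CPM in PPS at 24 h and 28.8 and 22.7 in PPS-DE(b), a rise of 1.65 ± 0.47, adjusted p = 0.0154, and this call was lost without PPS-DE(b) replicate 1 (0.101) or PPS-24h replicate 2 (0.219). ZEB2 rose from 15.3 and 8.26 to 47.6 and 43.3 CPM (1.98 ± 0.39, adjusted p = 0.000827) and ZEB1 from 1.38 and 0.903 to 17.7 and 20.4 CPM (4.08 ± 0.31, adjusted p = 5.7e-09), without overlap between the times for either gene. FN1 rose from 1166 and 651 to 5382 and 4675 CPM (2.51 ± 0.29, adjusted p = 1.93e-06), the highest FN1 mean of the 17 conditions. From 24 h to 48 h in DE(b) medium 4 of 9 genes were called from DE(a), 6 from APS, 6 from MPS and 7 from PPS, where 28.0%, 30.6%, 27.9% and 20.5% of all genes were called. SNAI2 from DE(a) was lost without DE(a)-24h replicate 2 (0.0501) or DE(a)-DE(b) replicate 2 (0.138), and ZEB2 from MPS without MPS-24h replicate 1 (0.103) or MPS-DE(b) replicate 2 (0.0874). ESRP2 was lost from APS without APS-DE(b) replicate 1 (0.182), APS-24h replicate 2 (0.179) or APS-DE(b) replicate 2 (0.0651), from MPS without MPS-DE(b) replicate 1 (0.208) or MPS-24h replicate 2 (0.197) and from PPS without PPS-DE(b) replicate 1 (0.0538).

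In PM medium SNAI2 and ZEB1 rose from each population, SNAI1 differed in direction between populations, and the splicing regulators fell from all 4 populations. SNAI2 in DE(a) went from 2.91 and 3.34 to 56.8 and 49.1 CPM (3.96 ± 0.53, adjusted p = 9.43e-06), and the rise from MPS (1.57 ± 0.46, adjusted p = 0.0158) was lost without MPS-PM replicate 1 (0.0802) or MPS-24h replicate 2 (0.181). TWIST1 had its highest levels here, with 17.5 and 9.82 CPM in DE(a)-PM and 14.9 and 9.86 in APS-PM against 2.08 and 0.966 in DE(a) and 2.74 and 1.65 in APS at 24 h (3.04 ± 0.52, adjusted p = 0.000166 and 2.39 ± 0.50, adjusted p = 0.00108). From PPS, TWIST1 was at 3.40 and 3.0 CPM and was not called (0.13 ± 0.49, adjusted p = 0.904). SNAI1 was between 63.2 and 87.2 CPM in the 4 PM conditions, above its 24 h level from DE(a) (1.00 ± 0.24, adjusted p = 0.00368) and below it from MPS (-0.72 ± 0.23, adjusted p = 0.0304). From PPS it was called higher too (adjusted p = 0.0369). That call was lost without replicate 2 of PPS-24h or PPS-PM (log2 fold changes 0.40 and 0.50). The DE(a) call was lost without DE(a)-24h replicate 2 (0.0596) or DE(a)-PM replicate 2 (0.0627) and the MPS call without MPS-24h replicate 1 (0.231) or MPS-PM replicate 1 (0.252). ESRP1 in MPS fell from 76.7 and 106 to 7.38 and 8.66 CPM (-3.62 ± 0.29, adjusted p = 1.61e-08), and ESRP2 in APS from 46.9 and 62.5 to 5.42 and 5.65 CPM (-3.41 ± 0.43, adjusted p = 3.88e-06). The calls numbered 9 of 9 from DE(a), 8 from APS, 7 from MPS and 8 from PPS, where 23.6%, 25.1%, 22.6% and 20.2% of all genes were called. From APS, VIM was lost without APS-24h replicate 2 (log2 fold change 1.04) and FN1 without APS-24h replicate 1 (1.05). From PPS, FN1 was lost without PPS-PM replicate 1 or PPS-24h replicate 2 (log2 fold changes 0.50 and 0.59). From MPS, the call of TWIST1 (1.53 ± 0.49, adjusted p = 0.0268) was lost without MPS-24h replicate 1 (0.0969), MPS-PM replicate 1 (0.102), MPS-24h replicate 2 (0.143) or MPS-PM replicate 2 (0.0685), and that of FN1 (-0.87 ± 0.28, adjusted p = 0.0276) without MPS-24h replicate 1 (0.328), MPS-PM replicate 1 (0.0744) or MPS-PM replicate 2 (0.172). The 7 calls from MPS thus became 3 without MPS-PM replicate 1 and 4 without MPS-24h replicate 1.

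In LM medium SNAI1 and SNAI2 went in opposite directions. SNAI2 rose by about the same amount from each population, between 4.20 ± 0.50 from MPS and 4.87 ± 0.52 from PPS, and reached 382 and 252 CPM in MPS-LM and 284 and 196 in PPS-LM. SNAI1 fell from each, most from MPS, where it went from 134 and 112 to 14.9 and 17.4 CPM (-2.94 ± 0.25, adjusted p = 1.35e-08). The falls from DE(a) (-0.83 ± 0.24, adjusted p = 0.0107) and PPS (-0.65 ± 0.24, adjusted p = 0.0467) were small, the first lost without DE(a)-24h replicate 1 (0.128) or DE(a)-LM replicate 1 (0.137) and the second without PPS-24h replicate 1 (0.507), PPS-LM replicate 1 (0.189) or PPS-LM replicate 2 (0.138). VIM reached its highest level in APS-LM, 3130 and 4180 CPM, from 881 and 542 at 24 h (2.32 ± 0.33, adjusted p = 9.97e-06). FN1 rose from DE(a), from 215 and 217 to 3749 and 4897 CPM (4.21 ± 0.32, adjusted p = 3.08e-09), and was not called from MPS (-0.11 ± 0.28, adjusted p = 0.816), where it was already high at 24 h. ESRP1 in MPS fell to 3.23 and 4.62 CPM (-4.54 ± 0.31, adjusted p = 5.73e-10), its lowest level of all conditions. The calls numbered 9 of 9 from DE(a), 8 from APS, 7 from MPS and 7 from PPS, where 32.2%, 37.2%, 31.3% and 25.0% of all genes were called. From DE(a), ESRP1 was lost without any 1 of the 4 libraries (log2 fold change between -0.75 and -0.89). TWIST1 was lost without DE(a)-LM replicate 1, DE(a)-24h replicate 2 or DE(a)-LM replicate 2 (log2 fold changes 1.33, 0.97 and 1.47). ZEB1 was lost without DE(a)-24h replicate 1 (log2 fold change 0.86). VIM from MPS was lost without replicate 2 of MPS-24h or MPS-LM (log2 fold changes 0.74 and 1.04). From PPS, VIM (1.04 ± 0.32, adjusted p = 0.0196) was lost without PPS-LM replicate 1 (0.145) or PPS-24h replicate 2 (0.226), and ESRP2 (-1.59 ± 0.39, adjusted p = 0.00437) without PPS-LM replicate 1 (0.102) or PPS-24h replicate 2 (0.0648), so that the 7 calls from PPS became 4 without PPS-LM replicate 1.

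Set against the control at 48 h, nearly every member differed in every condition. In DE(b) medium 6 of 9 genes were called for cells from DE(a), 8 from APS, 8 from MPS and 9 from PPS, against 34.7%, 38.4%, 38.3% and 34.6% of all genes. The exceptions were SNAI2 after DE(a), APS and MPS (-0.66 ± 0.83, -0.01 ± 0.77 and 1.55 ± 0.67) and ESRP1 and ESRP2 after DE(a) (-0.41 ± 0.25 and -0.37 ± 0.38). ESRP1 in DE(a)-DE(b), at 169 and 147 CPM, lay nevertheless below both controls, and SNAI2 there rested on 20 and 2 estimated counts. ZEB2 after DE(a) (1.96 ± 0.72, adjusted p = 0.0383) was lost without DE(a)-DE(b) replicate 1 (0.0766), DE(a)-DE(b) replicate 2 (0.129) or Control replicate 2 (0.274). In PM medium 9 of 9 were called after each population, against 31.4%, 35.0%, 35.8% and 40.9% of all genes. In LM medium 9 of 9 were called after each population too, against 34.9%, 43.4%, 41.6% and 41.1%. In all 8 conditions of PM and LM, the 5 factors, VIM and FN1 were higher and ESRP1 and ESRP2 lower than in the control. For SNAI2, ZEB2 and ESRP1 the condition furthest from the control was MPS-LM, with 8.48 ± 0.65 for SNAI2, 8.90 ± 0.59 for ZEB2 and -5.67 ± 0.32 for ESRP1.

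**Figure D3:**
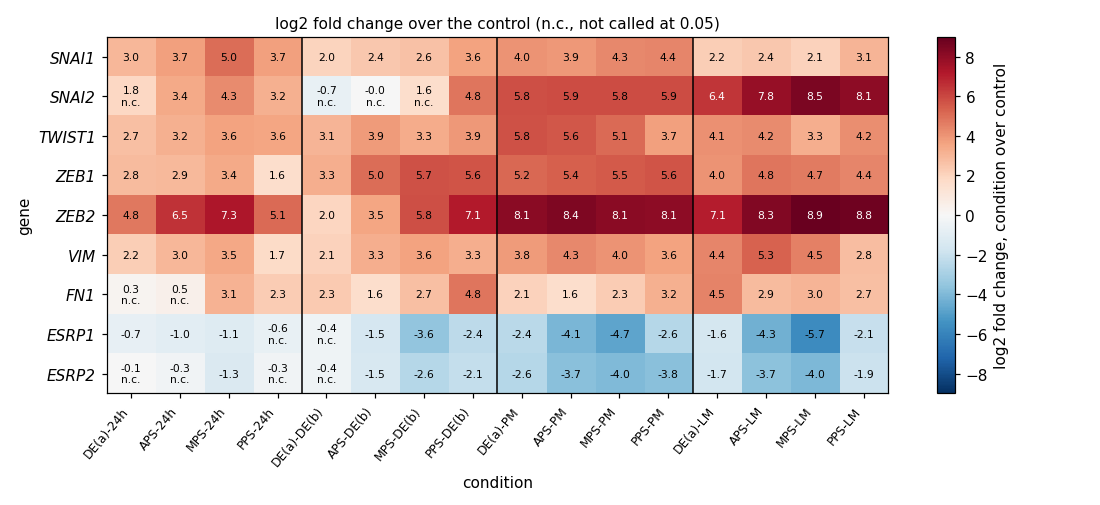
Log2 fold change over the control for the 9 genes (rows) in the 16 treated conditions (columns), with red for higher and blue for lower and the value printed in each cell; n.c. marks values that were not called. The upper 7 rows are red in all PM and LM columns and the 2 ESRP rows are blue, while SNAI2 after DE(a), APS and MPS and both ESRP genes after DE(a) are not called in DE(b).

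The media were then compared directly, as means over the 4 populations. In PM against DE(b) medium 9 of 9 genes were called (43.0% of all genes), with SNAI2 (4.42 ± 0.28, adjusted p = 2.05e-11) and ZEB2 (3.56 ± 0.22, adjusted p = 7.07e-12) furthest apart. SNAI1 (1.50 ± 0.12), TWIST1 (1.50 ± 0.25), VIM (0.86 ± 0.16) and ZEB1 (0.51 ± 0.13) were higher in PM as well. FN1 (-0.57 ± 0.14), ESRP1 (-1.51 ± 0.13) and ESRP2 (-1.90 ± 0.21) were lower. Some of these averages did not hold in every population. FN1 was at 1797 CPM in PPS-PM and 5029 in PPS-DE(b), but at 586 in APS-PM and 549 in APS-DE(b). ZEB1 was at 14.6 CPM in DE(a)-PM and 3.82 in DE(a)-DE(b), but at 18.4 in MPS-PM and 20.6 in MPS-DE(b). TWIST1 was at 3.20 CPM in PPS-PM and 3.63 in PPS-DE(b). In LM against DE(b) medium 7 of 9 were called (39.6% of all genes), all but SNAI1 (-0.23 ± 0.12, adjusted p = 0.135) and TWIST1 (0.40 ± 0.24, adjusted p = 0.218). SNAI2 again led with 6.26 ± 0.30, adjusted p = 1.29e-13, followed by ZEB2 with 3.66 ± 0.22, adjusted p = 4.43e-12, while ZEB1 was lower in LM (-0.43 ± 0.13, adjusted p = 0.0142). After DE(a) alone, the ZEB1 mean was higher in LM (6.57 CPM) than in DE(b) (3.82). FN1 was higher in LM on average, yet after PPS its mean was lower there (1210 CPM) than in DE(b) (5029). The FN1 call (0.42 ± 0.14, adjusted p = 0.0193) was lost without DE(a)-DE(b) replicate 1 (0.0531) or DE(a)-LM replicate 2 (0.059).

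Between the 2 mesoderm media 6 of 9 genes were called (42.0% of all genes), and the factors divided. SNAI2 was higher in LM (1.84 ± 0.23, adjusted p = 6.14e-07), and SNAI1 (-1.73 ± 0.12, adjusted p = 7.99e-11), TWIST1 (-1.10 ± 0.24, adjusted p = 0.000711) and ZEB1 (-0.94 ± 0.13, adjusted p = 4.52e-06) were lower. The libraries of the 2 media did not overlap for SNAI1, whose 8 PM libraries lay between 58.0 and 97.5 CPM and whose 8 LM libraries lay between 14.9 and 32.5. They did not overlap for ZEB1 either, between 13.7 and 20.4 CPM in PM and 6.12 and 11.9 in LM. SNAI2 lay between 45.8 and 67.3 CPM in PM and 67.7 and 382 in LM, where the media all but met. The nearest libraries, APS-PM replicate 1 and DE(a)-LM replicate 1, had scaling factors of 1.041 and 1.07 in the model. This gap in SNAI2 therefore depends on the scaling. ZEB2 (0.10 ± 0.18, adjusted p = 0.722), VIM (0.31 ± 0.16, adjusted p = 0.129) and ESRP1 (0.05 ± 0.14, adjusted p = 0.815) were not called. On average FN1 (0.99 ± 0.14, adjusted p = 4.53e-06) and ESRP2 (0.71 ± 0.21, adjusted p = 0.00792) were higher in LM, the latter lost without MPS-LM replicate 2. The averages did not hold in every population. ZEB2 means were lower in LM than in PM after DE(a) (47.2 against 98.1 CPM) and APS (108 against 117). They were higher in LM after MPS (155 against 95.4) and PPS (142 against 91.8). ESRP1 means were higher in LM after DE(a) (74.0 against 40.2 CPM) and PPS (47.6 against 35.5). They were lower in LM after APS and MPS (3.92 against 8.02 after MPS). After PPS, the TWIST1 mean was not lower in LM (4.22 CPM) than in PM (3.20). FN1 and VIM means were higher in LM after DE(a), APS and MPS, but lower after PPS (1210 against 1797 CPM for FN1, 614 against 1160 for VIM). ESRP2 was higher in LM after DE(a) and PPS, and close to PM after APS (5.58 against 5.53) and MPS (4.09 against 4.58).

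**Figure D4:**
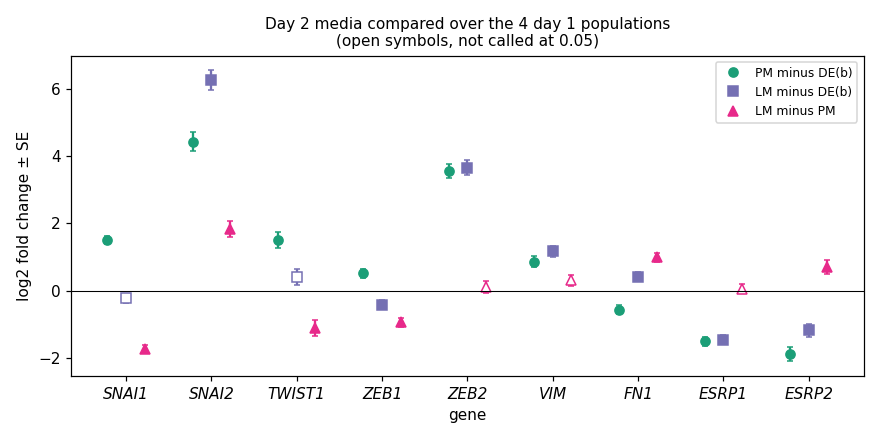
Log2 fold changes of the 9 genes (horizontal axis) between the 3 day 2 media, averaged over the 4 day 1 populations, with SE bars; filled symbols were called and open symbols were not. SNAI2 and ZEB2 are far above 0 for PM and LM against DE(b), and SNAI1, TWIST1 and ZEB1 are below 0 for LM against PM.

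The day 1 populations were next compared within each day 2 medium. Among the 4 populations, the F test called 8 of 9 genes within DE(b) medium (16.6% of all genes), 3 within PM (7.47%) and 7 within LM (19.6%). With only the libraries compared, none of the 3 calls in PM was left (adjusted p = 0.0509 for ESRP1, 0.148 for FN1 and 0.0835 for TWIST1). The 3 genes in PM were TWIST1, FN1 and ESRP1, and TWIST1 was lost without DE(a)-PM replicate 1 (0.0988), APS-PM replicate 1 (0.0603), PPS-PM replicate 1 (0.181), MPS-PM replicate 2 (0.051) or PPS-PM replicate 2 (0.288) and FN1 without PPS-PM replicate 1 (0.0894). In LM the call of SNAI1 was lost without PPS-LM replicate 1 (0.0711) or PPS-LM replicate 2 (0.0988), that of SNAI2 without DE(a)-LM replicate 1 (0.159) and that of ZEB2 without DE(a)-LM replicate 1 (0.13), and in DE(b) that of VIM without DE(a)-DE(b) replicate 2 (0.176). The interaction of the 2 days, which asks whether the effect of the medium differs between populations, was called for 7 of 9 genes (13.1% of all genes), all but SNAI1 (adjusted p = 0.116) and TWIST1 (0.0703). The lowest adjusted p were those of FN1 (8.76e-06), ZEB2 (2.92e-05), ESRP1 (5.54e-05) and SNAI2 (7.56e-05). VIM (0.00197) and ZEB1 (0.0032) followed. The ESRP2 call (adjusted p = 0.0468) was lost without any of 15 libraries (adjusted p between 0.0501 and 0.292), namely both of APS-DE(b), PPS-DE(b), APS-PM, MPS-PM, DE(a)-LM and APS-LM and replicate 2 of DE(a)-DE(b), PPS-PM and PPS-LM, with the highest p without PPS-LM replicate 2. TWIST1 was called without APS-DE(b) replicate 1 (0.0349), DE(a)-DE(b) replicate 2 (0.0323) or APS-DE(b) replicate 2 (0.0237).

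SNAI2 shows the contrast between media. In PM its means were 52.9, 56.6, 54.6 and 56.6 CPM after DE(a), APS, MPS and PPS, a ratio of 1.07 between highest and lowest. In DE(b) they were 0.551, 0.887, 2.68 and 25.7 CPM, and both PPS libraries lay above the 6 others. ZEB2 had the same order in DE(b), with 1.23 and 1.40 CPM after DE(a), 4.97 and 2.91 after APS, 22.5 and 15.5 after MPS and 47.6 and 43.3 after PPS, and no overlap between any of the 4. In PM its means ranged from 91.8 to 117 CPM and were not called as different (adjusted p = 0.988). ZEB1 in DE(b) was lowest after DE(a), 3.86 and 3.78 CPM, and between 12.6 and 20.6 CPM after the other 3. Per kilobase of transcript, MPS-DE(b) held 3.46 CPM of ZEB1 and 2.05 of ZEB2, and DE(a)-DE(b) held 0.643 and 0.142.

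**Figure D5:**
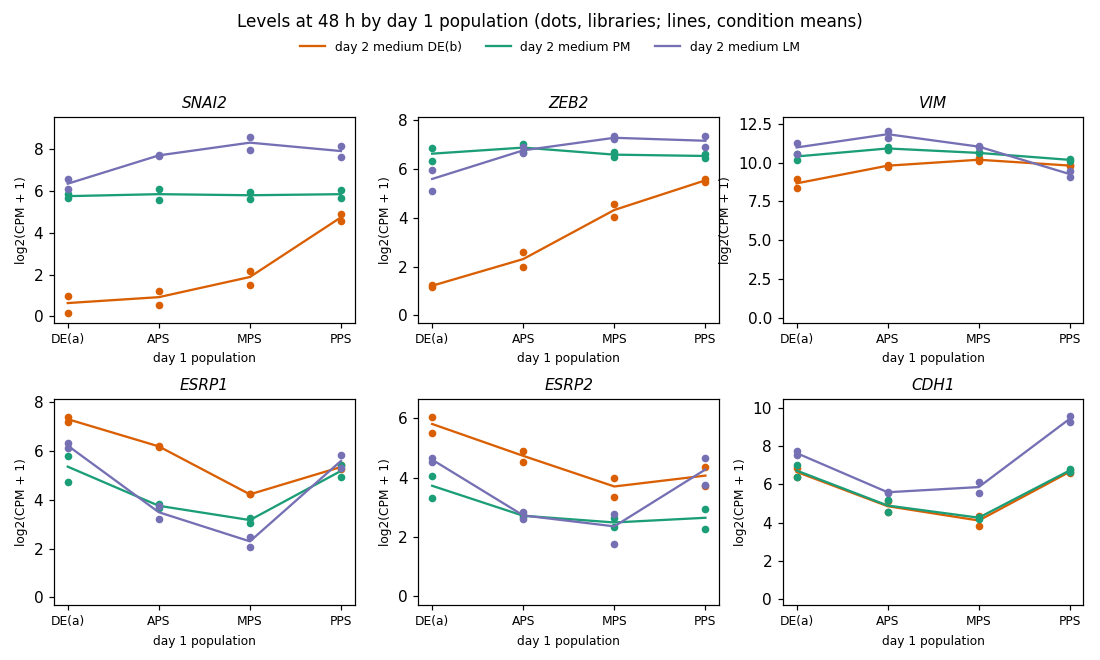
Levels at 48 h of SNAI2, ZEB2, VIM, ESRP1, ESRP2 and CDH1 as log2(CPM + 1) on the vertical axis against the day 1 population on the horizontal axis, with 1 line of condition means for each day 2 medium and dots for the libraries. SNAI2 and ZEB2 are flat in PM. In DE(b) ZEB2 climbs from DE(a) to PPS, while SNAI2 overlaps between DE(a) and APS and is highest after PPS. CDH1, ESRP1 and ESRP2 are higher in PPS-LM than in MPS-LM.

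PPS-DE(b) was set against DE(a)-DE(b), the endoderm protocol. On day 1, PPS and DE(a) differed in activin (0 against 100 ng/ml), bFGF (20 against 0 ng/ml), BMP4 (40 against 0 ng/ml) and CHIR (6 against 2 µM). In this and the other comparisons of PPS with DE(a), the parts of these agents cannot be told apart. Of the 9 genes 8 were called (17.4% of all genes), all but TWIST1. SNAI2 (5.50 ± 0.64, adjusted p = 2.97e-06), ZEB2 (5.15 ± 0.49, adjusted p = 2.19e-07), FN1 (2.44 ± 0.29, adjusted p = 4.15e-06), ZEB1 (2.36 ± 0.28, adjusted p = 3.77e-06) and SNAI1 (1.61 ± 0.24, adjusted p = 6.29e-05) were higher after PPS. ESRP1 was lower, with 37.5 and 42.2 CPM against 169 and 147 (-1.95 ± 0.27, adjusted p = 1.87e-05), and so was ESRP2 (-1.77 ± 0.40, adjusted p = 0.00304), the latter lost without PPS-DE(b) replicate 1 (0.0759). VIM (1.19 ± 0.32, adjusted p = 0.0121) was lost without PPS-DE(b) replicate 1 (0.0725) or DE(a)-DE(b) replicate 2 (0.171). CDH1, the classical target of these factors, was at 105 and 94.8 CPM after PPS and 116 and 83.4 after DE(a) and was not called (0.05 ± 0.26, adjusted p = 0.938). Markers of other fates moved with these genes. The paraxial mesoderm markers summed to 448 and 484 CPM after PPS and 13.8 and 18.1 after DE(a), with 8 of 9 identifiers called higher. The lateral mesoderm markers summed to 856 and 720.0 CPM after PPS and 128 and 144 after DE(a). The endoderm markers summed to 4009 and 4814 CPM after PPS and 6665 and 6580 after DE(a), but 5 of 8 were called lower after PPS (median -2.42). The part of cell composition in the result was not tested. Against MPS-DE(b) 5 of 9 were called (5.93% of all genes), all higher after PPS, with SNAI2 (3.29 ± 0.54, adjusted p = 0.000498) and FN1 (2.06 ± 0.29, adjusted p = 0.000131) furthest. SNAI1 (0.97 ± 0.24, adjusted p = 0.0162) was lost without MPS-DE(b) replicate 1 (0.136), PPS-DE(b) replicate 1 (0.142) or MPS-DE(b) replicate 2 (0.0997). ESRP1 (1.20 ± 0.27, adjusted p = 0.0076) was lost without MPS-DE(b) replicate 1 (0.0689), MPS-DE(b) replicate 2 (0.0852) or PPS-DE(b) replicate 2 (0.06), and ZEB2 (1.29 ± 0.38, adjusted p = 0.049) without any 1 of the 4 libraries (adjusted p between 0.0968 and 0.382). In this comparison 6 of 9 paraxial mesoderm identifiers were called higher and 2 of 8 endoderm markers lower after PPS, and their part in it was not tested.

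In LM medium PPS and MPS differed in the epithelial genes and in VIM, while SNAI2 and the ZEB factors were not called. Of the 9 genes 4 were called (5.60% of all genes). ESRP1 was at 39.0 and 56.2 CPM in PPS-LM and 3.23 and 4.62 in MPS-LM (3.58 ± 0.30, adjusted p = 1.47e-07). ESRP2 was at 12.3 and 24.3 CPM in PPS-LM and 2.39 and 5.80 in MPS-LM (2.12 ± 0.42, adjusted p = 0.00318), a call lost without MPS-LM replicate 1 (0.0904) or PPS-LM replicate 2 (0.107). Fitting only the libraries compared lost the ESRP2 call too (adjusted p = 0.0692). VIM was at 695 and 532 CPM in PPS-LM and 2059 and 2138 in MPS-LM (-1.79 ± 0.33, adjusted p = 0.0014). SNAI1 was slightly higher in PPS-LM (0.98 ± 0.24, adjusted p = 0.016), lost without MPS-LM replicate 1 (0.19), PPS-LM replicate 1 (0.0594) or PPS-LM replicate 2 (0.11). SNAI2 (-0.41 ± 0.44, adjusted p = 0.776), ZEB2 (-0.14 ± 0.37, adjusted p = 0.941) and ZEB1 (-0.28 ± 0.27, adjusted p = 0.744) were not called, and CDH1 was at 616 and 763 against 46.3 and 67.4 CPM (3.58 ± 0.28, adjusted p = 6.91e-08). The SNAI2 and ZEB2 means of PPS-LM were the second highest of the 17 conditions, and its CDH1 lay above the control, which was at 303 and 299 CPM (1.27 ± 0.26, adjusted p = 0.000429). Markers of amnion, an extra-embryonic epithelium, moved with these genes. The 10 amnion markers summed to 1074 and 1208 CPM in PPS-LM, 284 and 363 in DE(a)-LM, 111 and 157 in MPS-LM and 109 and 125 in APS-LM, and to at most 173 outside LM. In PPS-LM against MPS-LM 8 of 10 were called higher. None of the 10 was at 0 in PPS-LM, where IGFBP3 was at 703 CPM, TFAP2A at 140.1 and GATA3 at 121. The part of amnion-like cells in these differences was not tested.

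Against DE(a)-LM 5 of 9 genes were called in PPS-LM (14.3% of all genes). SNAI2 (1.66 ± 0.45, adjusted p = 0.0134), ZEB2 (1.67 ± 0.38, adjusted p = 0.00356) and SNAI1 (0.87 ± 0.24, adjusted p = 0.016) were higher after PPS, and FN1 (-1.75 ± 0.29, adjusted p = 0.000144) and VIM (-1.64 ± 0.32, adjusted p = 0.00105) were lower. The 3 factors were each lost without DE(a)-LM replicate 1, with adjusted p of 0.153 for SNAI2, 0.0923 for ZEB2 and 0.218 for SNAI1. SNAI2 was also lost without PPS-LM replicate 1 (0.114), and SNAI1 without PPS-LM replicate 1 (0.0625) or PPS-LM replicate 2 (0.0756). Marker lists moved with this comparison too. In PPS-LM 5 of 8 endoderm markers were called lower than in DE(a)-LM (median -5.09), with mean summed levels of 73.2 and 204 CPM, as were 6 of 11 pluripotency and 3 of 9 paraxial mesoderm identifiers. Higher were 5 of 9 lateral mesoderm identifiers and 4 of 10 amnion markers, and the part of other cell types in the result was not tested. In PM medium fewer members were called. Against DE(a)-PM 2 of 9 genes were called in PPS-PM (8.61% of all genes), TWIST1 lower (-2.07 ± 0.49, adjusted p = 0.00932) and FN1 higher (1.17 ± 0.28, adjusted p = 0.0105). TWIST1 was lost without DE(a)-PM replicate 1 (0.14), PPS-PM replicate 1 (0.053) or PPS-PM replicate 2 (0.0945), and FN1 without PPS-PM replicate 1 (0.169) or DE(a)-PM replicate 2 (0.136). Against MPS-PM 1 of 9 was called (1.03% of all genes), ESRP1 with 29.4 and 41.7 CPM against 7.38 and 8.66 (2.15 ± 0.28, adjusted p = 0.00019). With only the libraries compared, none of these PPS-PM calls was left. The adjusted p in that fit was 0.0811 for TWIST1, 0.231 for FN1 and 0.0678 for ESRP1.

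The cadherins were read beside the factors. CDH1 had similar means in DE(b) and PM media at 48 h, lowest after MPS in both. Its means in DE(b) were 99.4, 27.9, 16.2 and 99.8 CPM after DE(a), APS, MPS and PPS, and in PM they were 104, 28.6, 18.1 and 105. The difference between these media was 0.03 ± 0.13, adjusted p = 0.921, while SNAI1, SNAI2, TWIST1, ZEB1 and ZEB2 were all higher in PM on average. Not every population had all of these rises. ZEB1 was at 18.4 CPM in MPS-PM and 20.6 in MPS-DE(b), and at 20.0 in PPS-PM and 19.0 in PPS-DE(b). TWIST1 was at 3.20 CPM in PPS-PM and 3.63 in PPS-DE(b). In LM, CDH1 was higher than in PM (1.56 ± 0.13, adjusted p = 1.99e-09). CDH2, which encodes N-cadherin, was at 46.9 and 48.2 CPM in the control, between 395 and 552 at 24 h, between 651 and 840.4 in DE(b), between 470.0 and 519.7 in PM and between 118 and 219 in LM. Across the 17 condition means of log2(CPM + 1), the Pearson correlation of CDH1 was -0.708 with ZEB1, -0.161 with ZEB2, -0.030 with SNAI1 and -0.008 with SNAI2, and that of CDH2 with SNAI1 was 0.614. These correlations, as those below, are descriptions over 17 conditions that share a cell line and, in part, their treatments.

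The members also resembled each other in pairs. ESRP1 and ESRP2 were the closest (r = 0.937), then SNAI2 and ZEB2 (0.919), while the paralogues SNAI1 and SNAI2 had 0.293 and ZEB1 and ZEB2 0.631. The most negative pair was ZEB1 with ESRP2 (-0.835), followed by VIM with ESRP2 (-0.818). Among 12262 other genes that reached 10 CPM in a condition, those most like ZEB2 were CDH11 (r = 0.980), a mesenchymal cadherin, APLNR (r = 0.932), the apelin receptor, and SNAI2 itself. Those most like SNAI2 were VRK2 (r = 0.941), LRCH1 (r = 0.935) and IGDCC3 (r = 0.931). Both ESRP genes had KDF1 as the nearest gene (r = 0.967 for ESRP1 and 0.965 for ESRP2), followed by SPINT2 (r = 0.946) and TMEM30B (r = 0.945) for ESRP1 and by UCHL1 (r = 0.949) and PICK1 (r = 0.948) for ESRP2. VIM was nearest to MMP2 (r = 0.937), a matrix metalloproteinase, LRRFIP2 (r = 0.925) and WIPF1 (r = 0.920), and FN1 to ARPC5 (r = 0.871), CAP2 (r = 0.841) and CALU (r = 0.838). SNAI1 was nearest to ZBTB38 (r = 0.913), ADIPOR2 (r = 0.913) and TMEM192 (r = 0.906), and ZEB1 to JKAMP (r = 0.929), BACE1 (r = 0.920) and TMEM19 (r = 0.920). TWIST1 was nearest to DCBLD1 (r = 0.885), PCDHGC4 (r = 0.884) and RHOBTB2 (r = 0.881), the first 2 of which moved to places 19 and 23 with a pseudocount of 0.1. With that pseudocount VRK2 moved to place 8 for SNAI2, and SNAI2 to place 7 for ZEB2.

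Ordered by level, the conditions formed clear steps for some genes more than for others. Replicate ranges of neighbours overlapped least often for ZEB1 and ESRP1, in 8 of 16 places each. For SNAI1 the replicate ranges of neighbouring conditions overlapped in 12 of 16 places, with MPS-24h clear at the top and the control clear at the bottom. For SNAI2 the order was MPS-LM, PPS-LM and APS-LM, which overlapped in turn, then DE(a)-LM, then the 4 PM conditions, which did not separate. In the order for ZEB2, the top 7 conditions, 3 of LM and the 4 of PM, overlapped in turn. ZEB1 was highest in MPS-DE(b), PPS-PM, PPS-DE(b), MPS-PM and APS-PM, again without a gap, and TWIST1 had DE(a)-PM, APS-PM and then MPS-PM above all else. VIM had APS-LM alone at the top, and FN1 had PPS-DE(b) and DE(a)-LM, which overlapped, above the rest. ESRP1 stepped down from the control to DE(a)-DE(b), PPS-24h, DE(a)-24h and APS-24h without overlap, while for ESRP2 neighbours overlapped in 14 of 16 places.

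Levels of different genes were compared only per length, as CPM per kilobase of the GENCODE canonical transcript. In the control ESRP1 (56.7) was highest, then VIM (44.3), FN1 (22.8) and ESRP2 (21.1), and the 5 factors were between 0.0341 (ZEB2) and 2.39 (SNAI1). In MPS-24h SNAI1 (72.1) was the most abundant factor, above SNAI2 (7.74) and ZEB2 (5.43). In MPS-LM the first place among the factors was that of SNAI2 (146), with ZEB2 at 16.7 and SNAI1 at 9.46. In APS-PM SNAI1 (37.1) and SNAI2 (26.0) were nearer each other.

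The wider EMT programme was described with lists of other genes, without a test of the lists. Of 16 further EMT repressor factors, 10 were called higher and 3 lower in PM than in DE(b), with a list median of 0.67 beside 0.01 for all genes, of which 43.0% were called. The largest changes were those of GSC (-5.46 ± 0.20), a homeobox gene of the anterior streak, KLF8 (-3.83 ± 0.14), FOXC1 (3.56 ± 0.17) and SOX9 (3.30 ± 0.27). GSC is also on the primitive streak list and PRRX1 on the lateral mesoderm list. Of 30 mesenchymal matrix and cytoskeleton genes, 26 were higher and 1 lower in MPS-LM than in the control, 18 and 3 in APS-PM, and 18 and 3 in DE(a)-DE(b), where 41.6%, 35.0% and 34.7% of all genes were called. The list medians were 2.40, 1.54 and 1.08. In MPS-LM these included the collagen gene COL5A1 (5.07 ± 0.21) and CDH11 (6.04 ± 0.46), and in DE(a)-DE(b) the collagen gene COL5A2 (4.95 ± 0.35) and CDH2 (4.11 ± 0.17).

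Epithelial genes moved in both directions. Of 33 identifiers of 30 epithelial junction and polarity genes, 23 were lower and 5 higher in APS-PM than in the control (median -1.69), 19 and 9 in MPS-LM (-1.69), and 8 and 7 in DE(a)-DE(b) (0.05). Of all genes 35.0%, 41.6% and 34.7% were called in these comparisons. In MPS-LM the protease gene ST14 (-6.29 ± 0.46) and the claudin gene CLDN7 (-4.33 ± 0.33) were lower and the keratin gene KRT19 (4.44 ± 0.34) was higher. In PPS-LM against MPS-LM, where 5.60% of all genes were called, 17 of the 33 identifiers were higher, EPCAM (2.80 ± 0.28) among them. Of 13 identifiers of 12 epithelial transcription factors tested, 6 were higher and 2 lower there, with GRHL1 (4.80 ± 0.58) and GRHL2 (3.62 ± 0.43), grainyhead factors of epithelia, at the head. GRHL2 was lower than the control in MPS-LM (-3.32 ± 0.43), APS-PM (-4.48 ± 0.46) and DE(a)-DE(b) (-1.82 ± 0.40).

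Beyond the ESRP genes, 15 identifiers of 14 splicing regulators of EMT were tested. In MPS-LM 6 were higher and 6 lower than in the control (41.6% of all genes called), led by MBNL2 (4.69 ± 0.36), a muscleblind factor, and RBM47 (-2.88 ± 0.25). Between LM and PM media 8 were higher and 6 lower in LM (42.0% of all genes called). MBNL2 (2.40 ± 0.16), MBNL1 (2.23 ± 0.18) and MBNL3 (2.22 ± 0.22) were all higher in LM, and KHDRBS3 (-1.31 ± 0.09) was lower. RBM47 was lower than the control in APS-PM as well (-3.31 ± 0.25).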

How the data were processed

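RNA was sequenced from 34 ESI017 libraries, poly(A)-selected and stranded, in 17 conditions with 2 replicates each. The authors quantified reads with Salmon 1.10.2 on a GRCh38 transcriptome and summed them to genes in R 4.4.2. The deposited values are estimated counts (expected counts) per gene, not scaled for depth or length, in 1 table per replicate, and the annotation release of the index is not given in the sources used here. Longer genes collect more reads, so levels of different genes were compared per kilobase of the GENCODE v44 canonical transcript.

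Counts were rounded and fitted in R 4.3.3 with edgeR 4.0.16 (quasi-likelihood test, TMM, filterByExpr, 17 condition means, 17 residual degrees of freedom). The filter kept 17895 of 37951 genes, and p-values were adjusted over these by Benjamini-Hochberg with a threshold of 0.05. CPM used library totals of 15522780 to 23439799, where 3 counts, the limit that a count of 0 allows, cover counting error only. Alternatives were RLE scaling, no filter, DESeq2 1.42.0, a replicate block, only the libraries compared, and each library left out in turn. The script was tested on simulated data. Replicates differed by more than sampling noise in each condition (chi-square per gene 11.9 to 68.4).

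The members and gene lists were chosen with earlier results of these data known. All members are named. From each list up to 4 called genes of largest change with a mean of at least 10 CPM were eligible in a described comparison, and for each member the 3 genes of highest Pearson r were named. CDH1, CDH2 and markers were added where a result touched them. GSC and PRRX1 each stand on more than 1 list, and 0 of 10 antisense and miRNA host symbols matched. Promoter windows were taken from a RefSeq table.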

Additional observations from a re-analysis of the deposited data

Results flagged for a closer look

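The effect of the day 2 medium differed between the day 1 populations for 7 of the 9 genes, by the interaction test of the edgeR model over all genes. The adjusted p was 8.76e-06 for FN1, 2.92e-05 for ZEB2, 5.54e-05 for ESRP1, 7.56e-05 for SNAI2, 0.00197 for VIM, 0.0032 for ZEB1 and 0.0468 for ESRP2, and 13.1% of all genes were called. ESRP2 was the least secure of them, since its adjusted p passed 0.05 without any of 15 libraries.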

How the results depend on the processing

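Each family of comparisons was counted again under every alternative. The 7 calls between neighbouring populations at 24 h became 15 with no filter and 3 with only the libraries compared, and ranged from 4 to 9 with 1 library left out, 4 being the count without PPS-24h replicate 2. The 6 calls among the populations at 24 h became 3 with only the libraries compared. Without a filter more genes were tested, and with only the libraries compared fewer libraries fixed the spread. The other counts stayed within 1.5 times their values. Of 405 single tests 303 were called, 247 of them in every fit with 1 library left out, while 56 were lost without some library. DESeq2 lost 0 of the 303 calls and added 9, and RLE lost 1. Fitting only the libraries compared lost 23 and added 4. The calls lost in that fit were at 24 h and at 48 h, among them those between populations in PM medium. No called value changed direction under any alternative listed in the processing. The TWIST1, ZEB1 and ZEB2 counts in the control were 14 or fewer, which limits the precision of their folds.

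All replicate 1 libraries are in 1 deposited table and all replicate 2 libraries in another, and nothing in the labels names a shared day or batch. The correlation of replicate differences between conditions ranged from -0.172 to 0.531 (median 0.142, 89 of 136 pairs over 0.1). Pooled in this way it does not settle whether the replicate numbers pair the libraries. At 24 h VIM was higher in replicate 1 in each population, and in PM the summed streak markers were higher in replicate 2 in each. A replicate block takes out only a difference shared by all conditions. With a replicate block 1 of the 303 calls was lost, ZEB2 in DE(a)-DE(b) against the control (adjusted p = 0.0512). Added were SNAI2 against the control in DE(a)-24h (0.0273) and MPS-DE(b) (0.0492), FN1 from MPS to PPS at 24 h (0.0438), and ESRP2 among populations at 24 h (0.0479), among those in PM (0.0335) and in PPS-PM against DE(a)-PM (0.0407), 6 in all. The counts were 30 (29 without it) against the control at 24 h, 103 (103) at 48 h, 8 (7) between neighbouring populations, 7 (6) among populations at 24 h, 86 (86) from 24 h to 48 h, 22 (22) between media, 19 (18) among populations within a medium, 26 (25) for PPS and 7 (7) for the interaction.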
